A study of Homo sapiens with 8 samples.

Results

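Cytosolic ribosomal protein genes were followed in A375 cells, a human melanoma line, after transfection with constructs of SLNCR1, a long noncoding RNA studied in melanoma. The genes were taken by name, as entries called RPL or RPS followed by a number and at most an A, X or L, with RPSA and the stalk genes RPLP0, RPLP1 and RPLP2, and by a mean of at least 50 normalized counts in vector cells in the authors' deposited table for SLNCR1. Of 56638 entries, 83 carried such a name and 78 reached that mean, 31 of the small and 47 of the large subunit. Cells had received full-length SLNCR1, the conserved region of SLNCR1 alone, SLNCR1 lacking that region (called delta-conserved here) or empty vector, and each group had 2 libraries of poly(A)-selected RNA. Each construct was carried by pcDNA3.1(-), a plasmid for transient expression, delivered with Lipofectamine 2000 at 24 hours after seeding, and cells grown with 10% serum were harvested 48 hours after transfection. All 4 groups thus share the plasmid backbone, the lipid reagent and 1 parental line.

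A ribosome joins a small subunit, which decodes the messenger RNA, to a large subunit, which forms peptide bonds and holds the exit tunnel. Each subunit needs most of its proteins in equal number, and the messenger RNAs of ribosomal proteins are among the most abundant of a growing cell. Most human ribosomal protein messenger RNAs begin with a cytosine followed by a run of pyrimidines, the 5′ terminal oligopyrimidine (TOP) motif, through which mTOR signalling and the RNA-binding protein LARP1 control their translation. Free RPL5 and RPL11 bind MDM2 and thereby stabilise p53 when ribosome assembly is disturbed.

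The deposited tables give group means. Each mean is a sum of whole reads divided by 2 size factors, so the reads of the 2 libraries of a group could be solved, and the deeper library of each group is called a and the other b. Which labelled replicate each one is was not recoverable. Assigned reads numbered 10097194 and 9090649 for SLNCR1 and 11340439 and 10280144 for the conserved region. They numbered 9187241 and 8222868 for delta-conserved, and 12015394 and 11321294 for vector. No entry is named SLNCR1 or LINC00673, the gene for which RefSeq lists that synonym. All 5 of its RefSeq transcripts match LINC00511 in GENCODE release 29, and LINC00511 averaged 869 ± 15.3 normalized counts with SLNCR1, 1089 ± 62.4 with the conserved region, 1005 ± 200 with delta-conserved and 620 ± 4.65 in vector cells (SD, n = 2 each). Of 8 melanoma markers 6 had at least 10 reads in some library, with SOX10 and MITF among them, while the pigment enzymes TYR and DCT stayed under 10. Of the 6, TYRP1 had only 3 to 13 reads per library, MLANA 9 to 16 and PMEL 16 to 48. In the keratinocyte list KRT1 and KRT5 stayed under 10 reads, while KRT10 and KRT14 were detected and the list summed to between 645 and 774 normalized counts per library. In the leukocyte list PTPRC and CD3E stayed under 10 reads, while CD14 was detected and the list summed to between 14.2 and 23.0. The 4 fibroblast markers were all detected and summed to between 658 and 798. The part of these cell types in the results below was not tested. The labels do not state separate cultures for the 2 libraries of any group. Every p-value below therefore rests on spread between libraries that may be technical.

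As a set, the ribosomal protein genes stood higher in construct libraries than in vector libraries. On the scale of log2(normalized count + 1), where a normalized count is a library's reads divided by its median-of-ratios size factor, the median of the 78 genes lay 0.14 and 0.29 above the vector mean in the 2 SLNCR1 libraries, 0.05 and 0.16 above it with the conserved region, and 0.24 and 0.34 above it with delta-conserved. The vector libraries themselves lay at -0.04 and 0.04. All 6 construct libraries thus had a higher median than both vector libraries, and delta-conserved b had the highest. With library depth as a term in the fit, described further on, the medians were -0.05 with delta-conserved and -0.01 with SLNCR1. In bulk libraries, fewer cells of a type and less RNA per cell cannot be told apart.

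**Figure D1:**
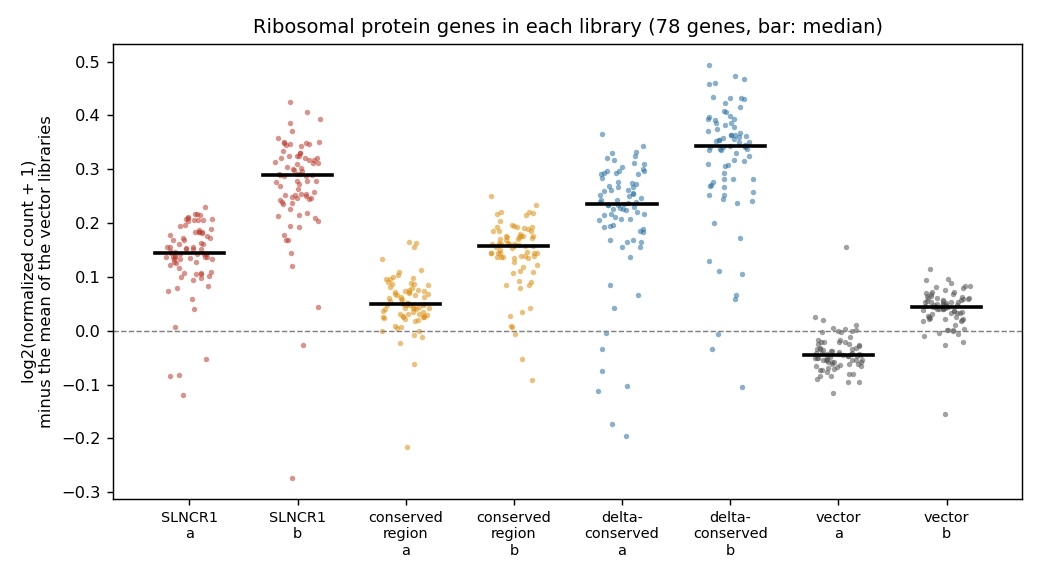
Each point is 1 of the 78 ribosomal protein genes in 1 library, as log2(normalized count + 1) minus that gene's mean in the vector libraries, and the bar is the median. The highest median is 0.34, in delta-conserved b, against -0.04 and 0.04 in the vector libraries, and library b lies above library a in every group.

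Per gene, limma was fitted once over all 8 libraries on 16058 genes, with Benjamini-Hochberg adjustment over all of them and a call at an adjusted p under 0.05, two-sided. With delta-conserved 75 of 78 ribosomal protein genes had a log2 difference from vector above 0. Their median was 0.29, against 0.00 over all genes tested, and their SD was 0.11, against 0.31. With SLNCR1 75 of 78 lay above 0 as well, with a median of 0.22 against 0.00 and an SD of 0.08 against 0.32. With the conserved region 75 of 78 lay above 0, with a median of 0.11 against 0.02 and an SD of 0.05 against 0.19. The 3 comparisons share the same vector libraries and are not independent of each other.

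With delta-conserved, limma called 56 of the 78 genes higher and 0 lower, where 5.19% of all genes tested were called higher and 5.26% lower. At the same threshold the authors' deposited table called 32 higher and 0 lower, where 1.11% of all genes with a p were called higher and 1.14% lower. All 32 are among the 56. With SLNCR1, limma called 23 higher and 0 lower, where 3.94% of all genes tested were called higher and 7.41% lower, and 22 of these 23 were also called with delta-conserved. The authors' deposited table called 0 of the 78 with SLNCR1, where 0.0388% of genes were called higher and 0.844% lower, although 36 had an unadjusted p under 0.05 and the lowest adjusted p was 0.322. With the conserved region limma called 0, with 1 gene at an unadjusted p under 0.05 and 0.00623% of all genes called higher. The authors' deposited table likewise called 0 with the conserved region, with 0 genes at an unadjusted p under 0.05 and 0.0175% of all genes called higher. Both libraries of the construct exceeded both vector libraries for 70 genes with delta-conserved (27.7% of all genes tested), 71 with SLNCR1 (27.2%) and 41 with the conserved region (25.1%).

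All 56 calls with delta-conserved and all 23 with SLNCR1 were lost with depth in the fit, a term chosen after seeing the data. Single libraries also decided the limma counts. Without vector a or without delta-conserved b, 0 of the 56 calls with delta-conserved remained, and without delta-conserved a 32 genes were called. Without either SLNCR1 library the count was higher, up to 67. Without vector a or SLNCR1 b, 0 of the 23 calls with SLNCR1 remained. The count was 65 without SLNCR1 a, 9 and 11 without conserved region a and b, and 4 and 7 without delta-conserved a and b. The medians kept their sign in each of these fits, at 0.23 to 0.34 with delta-conserved, 0.14 to 0.29 with SLNCR1 and 0.05 to 0.16 with the conserved region.

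**Figure D2:**
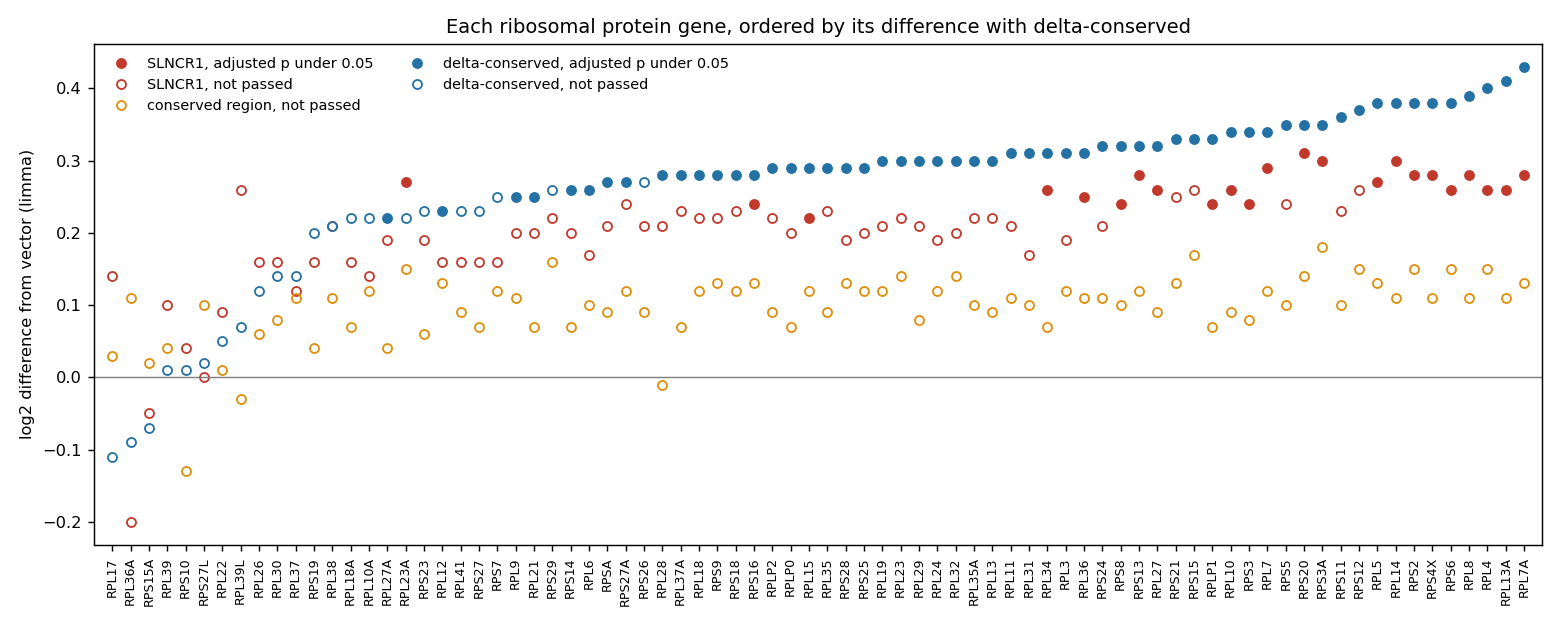
The limma log2 difference from vector of each of the 78 genes, ordered by its value with delta-conserved; filled points passed at an adjusted p under 0.05. Delta-conserved runs from -0.11 for RPL17 to 0.43 for RPL7A, the SLNCR1 points lie mostly below it, and no gene passed with the conserved region.

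The starts of the genes show the TOP motif that most of them share. RefSeq starts (GRCh38.p14) were available for 63 of the 78. In 42 of these (66.7%) the first base was a C followed by at least 4 more pyrimidines, against 4.04% of all 27305 promoter entries and 5.32% of those of tested genes. The windows below, 12 bases before the start and 18 from it, show genes called with delta-conserved that hold the run (RPL7A, RPL13A, RPS6, RPLP0, RPLP1, RPLP2), genes that hold it and were not called (RPL22, RPL39, RPS27), and genes without it, of which RPL4 and RPS4X were called and RPS27L was not. Capitals mark the pyrimidine run from the annotated first base.
RPL7A (chr9:133348206-133348235, plus strand): caattccctttcCTTTCTCTCTCCTCCCgc
RPL13A (chr19:49487596-49487625, plus strand): caaaacctcctcCTTTTCCaagcggctgcc
RPS6 (chr9:19380219-19380248, minus strand): cggaagttggccCTCTTTTCCgtggcgcct
RPLP0 (chr12:120201094-120201123, minus strand): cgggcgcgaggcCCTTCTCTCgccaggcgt
RPLP1 (chr15:69452806-69452835, plus strand): taggcgcgagagCCCCTTTCCTCagctgcc
RPLP2 (chr11:809955-809984, plus strand): cgtcggcgccttCCTTTTCCTCCCTgtcgc
RPL22 (chr1:6199578-6199607, minus strand): ttcgctcacctcCCTTTCTaactccgctgc
RPL39 (chrX:119791613-119791642, minus strand): ttccgccagcttCCCTCCTCTTCCTTTCTC
RPS27 (chr1:153990750-153990779, plus strand): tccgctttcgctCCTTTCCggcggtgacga
RPL4 (chr15:66504838-66504867, minus strand): agcgggagtggtaagcacttccttttcctg
RPS4X (chrX:72277231-72277260, minus strand): gtctccagccccaatttctacgcgcaccgg
RPS27L (chr15:63157460-63157489, minus strand): ttgatgccgagcgcagatcgcttgcagctt

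The run did not divide the genes by their values. The 42 genes with it had a median log2 difference of 0.29 with delta-conserved and the 21 without it 0.29, and limma called 32 and 15 of them. With SLNCR1 the medians were 0.21 and 0.21, and with the conserved region 0.09 and 0.12. A start that lies some bases away from the site used in these cells would hide a run, so its absence says only that these letters are not at the annotated start. In RPL4 the window holds a pyrimidine stretch after the annotated start. Within the 300 bases of each promoter entry, on either strand, CGGAAG was found in 63.5% of the 63 genes, 31.9% of the entries of tested genes and 19.9% of all entries. AAGATGG was found in 12.7% of the 63, 7.37% of the entries of tested genes and 6.06% of all. A match is a description of the sequence and not of a bound site.

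Among the large-subunit proteins, RPL7A had the highest difference with delta-conserved. It stood at 1489.5 and 1629 normalized counts in delta-conserved libraries, against 1113 and 1201 in vector libraries, with no overlap. The log2 difference was 0.43 ± 0.076 (SE; limma adjusted p = 0.00212), and in the authors' deposited table it was 0.43 with an adjusted p of 0.000491. RPL13A, which also forms part of the interferon-gamma-activated translational inhibitor complex, stood at 1936 and 2118 with delta-conserved, against 1470.1 and 1584 in vector (log2 0.41 ± 0.074 SE, limma adjusted p = 0.00272). RPL4, whose extension lines the exit tunnel, had 2300.5 and 2531 normalized counts with delta-conserved, against 1770.0 and 1891 in vector (log2 0.40 ± 0.076 SE, limma adjusted p = 0.00351). RPL8, which lies near the peptidyl transferase centre, followed at 0.39 ± 0.080 (SE; limma adjusted p = 0.00611). These 4 were the highest of the 78 with delta-conserved, and each lost its call without delta-conserved b or vector a.

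The same genes were called with SLNCR1, with smaller values. RPL7A had 1344 and 1469.8 normalized counts with SLNCR1 against the vector values above, a log2 difference of 0.28 ± 0.076 (SE; limma adjusted p = 0.0266). RPL4 stood at 0.26 ± 0.076 (SE; limma adjusted p = 0.0361). The highest values with SLNCR1 were those of RPS20 at 0.31, RPL14 and RPS3A at 0.30 and RPL7 at 0.29, and limma called all 4. RPS20, a protein of the small subunit's head, stood at 821 and 936 normalized counts with SLNCR1, against 667 and 746 in vector, where the groups did not overlap. All of these calls were lost without SLNCR1 b or vector a, the calls of RPL4 and RPS3A also without any 1 library of the conserved region or delta-conserved, that of RPL14 without delta-conserved a, and that of RPS3A without vector b.

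RPL5 and RPL11, the partners of 5S ribosomal RNA that bind MDM2, were both higher with delta-conserved. RPL5 had 1546 and 1658 normalized counts with delta-conserved, against 1168 and 1291 in vector (log2 0.38 ± 0.078 SE, limma adjusted p = 0.00521). With SLNCR1 it had 1425 and 1544 (log2 0.27 ± 0.078 SE, limma adjusted p = 0.0326). RPL11 had 1287 and 1383 with delta-conserved, against 1047 and 1104 in vector (log2 0.31 ± 0.074 SE, limma adjusted p = 0.0123), and its value with SLNCR1, 0.21, did not pass (adjusted p = 0.0756). Neither passed with the conserved region, at 0.13 and 0.11. With delta-conserved both calls needed delta-conserved b and vector a, and with SLNCR1 the call of RPL5 was lost without SLNCR1 b, vector a or either delta-conserved library.

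The stalk, which recruits the GTPases of translation, is built from RPLP0 and dimers of RPLP1 and RPLP2. RPLP0 stood at 1874 and 2019 normalized counts with delta-conserved, against 1524 and 1666.5 in vector. RPLP1 stood at 1258.5 and 1392 with delta-conserved, against 1014 and 1088 in vector. RPLP2 stood at 893 and 973 with delta-conserved, against 725 and 799 in vector. No group pair overlapped, the log2 differences were 0.29, 0.33 and 0.29, and limma called all 3, with adjusted p-values of 0.0198, 0.00881 and 0.0289. The calls of RPLP0 and RPLP2 were lost without delta-conserved a, delta-conserved b or vector a, and that of RPLP1 without delta-conserved b or vector a.

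The 4 members with the most normalized counts in vector were RPL3, RPL28, RPL13 and RPL4. RPL3, a core protein near the catalytic centre, stood at 2377 and 2606 with delta-conserved, against 1926 and 2096 in vector (log2 0.31 ± 0.073 SE, limma adjusted p = 0.0126). RPL13 had 2179 and 2320.0 with delta-conserved, against 1767 and 1895 in vector (log2 0.30 ± 0.074 SE, limma adjusted p = 0.0160). RPL28 had 2366 and 2386.5 with delta-conserved, against 1907.5 and 2019 in vector (log2 0.28 ± 0.068 SE, limma adjusted p = 0.0160). With the conserved region RPL28 had 1932 and 1975 normalized counts, a difference from vector of -0.01. RPL41, a very short basic peptide, reached 0.23 ± 0.088 with delta-conserved and did not pass (SE; limma adjusted p = 0.105), and RPL10, which completes the catalytic centre late in maturation, passed at 0.34 ± 0.077 (SE; adjusted p = 0.00959). All of the calls in this paragraph were lost without delta-conserved b or vector a, those of RPL13 and RPL28 also without delta-conserved a, while RPL41 passed without either SLNCR1 library.

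In the small subunit, RPS6, the substrate of the S6 kinases, stood at 1854 and 2006.5 normalized counts with delta-conserved, against 1440.3 and 1529.8 in vector. Its log2 difference was 0.38 ± 0.074 (SE; limma adjusted p = 0.00417). With SLNCR1 it had 1713 and 1844 (log2 0.26 ± 0.074 SE, limma adjusted p = 0.0325), and with the conserved region 1558 and 1729.8 (log2 0.15, adjusted p = 0.829). RPS4X and RPS2, which lies at the entry of the messenger RNA channel, also stood at 0.38 with delta-conserved, and RPS3, at the same entry, at 0.34. RPS19, the gene most often mutated in Diamond-Blackfan anaemia, had 1931 and 2035 normalized counts with delta-conserved, against 1649 and 1801 in vector, and its 0.20 ± 0.074 did not pass (SE; limma adjusted p = 0.0943). Of 31 small-subunit genes limma called 22 with delta-conserved and 9 with SLNCR1. Of 47 large-subunit genes it called 34 and 14. The median log2 differences of the small and the large subunit were 0.29 and 0.29 with delta-conserved, 0.23 and 0.21 with SLNCR1, and 0.12 and 0.10 with the conserved region. The delta-conserved calls named here were lost without delta-conserved b or vector a, the SLNCR1 call of RPS6 was lost without SLNCR1 b, vector a or either delta-conserved library, and RPS19 passed with delta-conserved without either SLNCR1 library.

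A few members did not follow the rest. With delta-conserved RPL17, at the rim of the exit tunnel, had 146 and 147 normalized counts, against 158 and 158 in vector, a log2 difference of -0.11 ± 0.118 (SE; limma adjusted p = 0.642). RPL36A had 202 and 227 with delta-conserved, against 254 and 205 in vector, so that the groups overlapped (log2 -0.09 ± 0.121 SE, limma adjusted p = 0.720). RPS15A had 443 and 529 with delta-conserved, against 500.2 and 515 in vector, which also overlapped (log2 -0.07 ± 0.088 SE, limma adjusted p = 0.708). These 3 were the only members below 0 with delta-conserved. RPS10 followed at 0.01 and RPL39, which lines the exit tunnel, at 0.01. RPL22, which also binds Epstein-Barr virus RNA, stood at 0.05 with delta-conserved, 0.09 with SLNCR1 and 0.01 with the conserved region. It did not pass in any of the 3 comparisons. With SLNCR1 the lowest was RPL36A, at 209.9 and 189 normalized counts against the vector values above, a log2 difference of -0.20 ± 0.121 (SE; limma adjusted p = 0.307), and RPS15A followed at -0.05. With single libraries left out, the value of RPL36A with delta-conserved ran from -0.24 to 0.07, above 0 without vector a, and that of RPS15A from -0.20 to 0.06, above 0 without delta-conserved a.

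RPS10, RPL17 and RPL36A share an annotation feature. Each overlaps a read-through entry in the deposited tables, RPS10-NUDT3, RPL17-C18orf32 and RPL36A-HNRNPH2, and all 3 of those entries hold 0 reads in all 8 libraries. RPS10 had between 61 and 89 unscaled reads per library, the fewest of the 78. The handling of reads that overlap several entries was not given in the sources used here, which leaves the levels of these 3 genes uncertain. No gene of the name pattern lay close to the minimum of 50: in the authors' deposited table the lowest members were RPS10, with a vector mean of 75.2, and RPL39, with 105, and the highest genes left out were RPL3L, with 9.73, and RPL10L, with 2.29.

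Paralogs within the set had unlike values. RPS27 had 546 and 574 normalized counts with delta-conserved, against 458 and 494 in vector, with no overlap and a log2 difference of 0.23 ± 0.082 that did not pass (SE; limma adjusted p = 0.0782), although it passed without either SLNCR1 library. RPS27L, a paralog known to be induced by p53, had 657 and 705 with delta-conserved, against 663 and 683 in vector, a difference of 0.02 ± 0.076 (SE; limma adjusted p = 0.930). RPL39L, a paralog of RPL39 best known from the testis, had 173 and 150.5 with delta-conserved, against 148 and 161 in vector, and its difference was 0.07 ± 0.135 (SE; limma adjusted p = 0.824). The differences between paralogs were not tested.

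**Figure D3:**
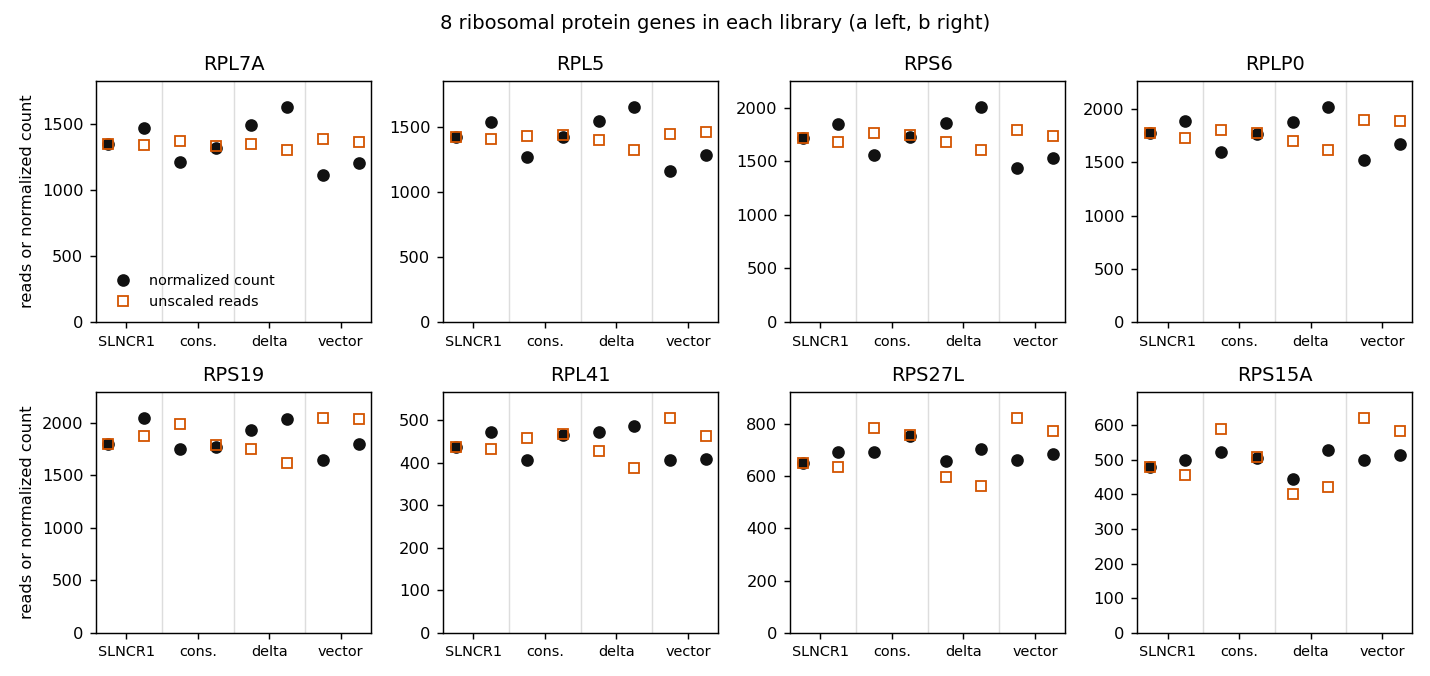
Normalized counts (filled circles) and unscaled reads (open squares) of 8 ribosomal protein genes in each library, with library a left and b right in each group. The unscaled reads of RPL7A stay between 1299 and 1384 over all 8 libraries, while those of RPS15A run from 401 to 622.

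With the conserved region no gene of the set passed, and the values lay close together. The highest was RPS3A, a protein of the small subunit, with 471.5 and 518 normalized counts with the conserved region, against 430.2 and 441 in vector, which did not overlap (log2 0.18 ± 0.086 SE, limma adjusted p = 0.829). RPS15, which takes part in exporting the small subunit from the nucleus, followed at 0.17 ± 0.082 (SE; adjusted p = 0.829), with 723 and 787 against 637 and 704. The lowest were RPS10 at -0.13, RPL39L at -0.03 and RPL28 at -0.01, the 3 members below 0. RPS10 had 61.0 and 68.5 normalized counts with the conserved region, against 71.6 and 70.6 in vector, at few reads and with a standard error of 0.178.

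Between the constructs, few ribosomal protein genes passed. SLNCR1 against delta-conserved gave 0 limma calls among the 78, with 1 gene at an unadjusted p under 0.05 and 0 calls over all genes tested, and the median log2 difference was -0.07. SLNCR1 against the conserved region gave 1, RPL28, which stood at 2160 and 2382 normalized counts with SLNCR1, against 1932 and 1975 with the conserved region (log2 0.22 ± 0.068 SE, limma adjusted p = 0.0490), where 2.06% of all genes tested were called higher and 9.47% lower. That call was lost without SLNCR1 b or any 1 library of the conserved region or delta-conserved. The conserved region against delta-conserved gave 7 lower and 0 higher, where 1.11% of all genes tested were called lower and 5.79% higher: RPL7A at -0.30, RPL13A at -0.29, RPL28 at -0.28, RPL8, RPLP1 and RPS4X at -0.27, and RPS3 at -0.26. For RPL7A, the conserved region libraries had 1210.2 and 1321 normalized counts, against 1489.5 and 1629 with delta-conserved. The 7 calls were lost without any 1 library of either group, and without SLNCR1 a or b the count was 35 or 36.

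The unscaled reads behind these levels were nearly constant. Reads on the 78 genes numbered 81949 and 81751 in the SLNCR1 libraries, 86416 and 82602 in those of the conserved region, 78665 and 74735 with delta-conserved, and 88857 and 86336 in vector. The highest library total was 1.46 times the lowest, the highest sum over the ribosomal protein genes 1.19 times the lowest. Delta-conserved libraries together had 0.746 times the reads of the vector libraries and 0.876 times their reads on ribosomal protein genes. For SLNCR1 these ratios were 0.822 and 0.934, and for the conserved region 0.926 and 0.965. Before scaling, all 78 genes had fewer reads in both delta-conserved libraries than in both vector libraries, and 70 had fewer in both SLNCR1 libraries. RPL7A is an example, with 1348 and 1299 reads in delta-conserved libraries, against 1384 and 1361 in vector libraries. The share of assigned reads on the 78 genes was 0.812% and 0.899% with SLNCR1, 0.762% and 0.804% in conserved-region libraries, 0.856% and 0.909% with delta-conserved, and 0.740% and 0.763% in vector. A fit with log2 of the library total as a further term, chosen after seeing the data, called 0 of the 78 genes in all 6 comparisons. The median log2 difference was then -0.05 with delta-conserved, -0.01 with SLNCR1 and 0.02 with the conserved region. For RPL7A with delta-conserved it was 0.05. Every construct library but 1 was shallower than both vector libraries, so construct and depth cannot be fully told apart.

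**Figure D4:**
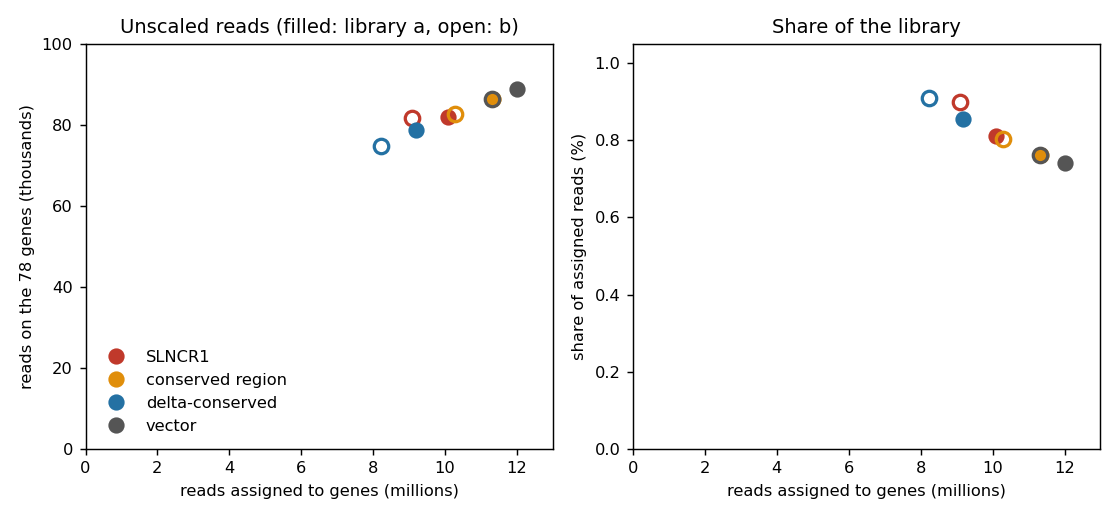
Left, reads on the 78 ribosomal protein genes against all reads assigned to genes; right, their share of assigned reads, per library, with library a filled and b open. The reads stay between 74735 and 88857 while totals run from 8222868 to 12015394, and the share is highest, 0.909%, in the shallowest library.

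The same relation was seen between libraries a and b of each group, and its cause was not tested. Library b had fewer reads than library a by 9.97% for SLNCR1, 9.35% for the conserved region, 10.5% for delta-conserved and 5.78% for vector. After scaling, b exceeded a in 76, 73, 77 and 71 of the 78 genes in those groups. The median log2 differences, b minus a, were 0.13, 0.10, 0.11 and 0.09, against 0.01, 0.01, 0.01 and 0.02 over all genes tested. Densely read genes outside the set had values near those of the 78, given further on. Unscaled reads of a and b differed less over the 78 genes than sampling alone gives, with the 2 libraries' sums over these genes taken as fixed: a chi-square per degree of freedom of 0.465 for SLNCR1, 0.556 for the conserved region, 0.369 for delta-conserved and 0.750 for vector. Over the 17781 to 19069 genes per group that reached a minimum of reads in a and b together, these values were 3.88, 1.16, 1.45 and 2.40. The lowest was that of the conserved region.

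The genes of the set also differ from most others in how densely they were read. Unscaled reads divided by transcript length, averaged over the 8 libraries, had a median of 1.22 reads per base over the 78 genes, against 0.164 over the 12617 other tested genes with a length. They ran from 0.111 for RPS10 to 3.21 for RPL28. Above 1 read per base lay 48 of the 78, and 414 of the others (3.28%). Above 2 reads per base lay 8 of the 78 and 24 of the others. Lengths came from GENCODE release 29, not from the annotation behind the counts, and a few are long for the gene, such as 7686 bases for RPL37, whose density is then understated.

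Genes outside the set were set beside the ribosomal protein genes at like read density. Above 1 read per base, the median log2 difference with delta-conserved was 0.30 for ribosomal protein genes and 0.25 for other genes. With SLNCR1 it was 0.22 for both, and with the conserved region 0.11 and 0.10. Between libraries of 1 group, b minus a, the medians of these other genes were 0.10 for SLNCR1 and 0.09 for the conserved region. They were 0.07 for delta-conserved and 0.12 for vector. At lower density the member medians stood above those of the others with delta-conserved and SLNCR1, but long annotated transcripts placed some members there. Between 0.2 and 0.3 reads per base, ribosomal protein genes had 0.10 with delta-conserved (8 genes), against 0.00 for 1669 other genes. With SLNCR1 they had 0.16, against 0.00. Of these 8, RPL37, RPL27A, RPL37A and RPS23 had lengths of 3437 to 7686 bases. They stood at 0.14, 0.22, 0.28 and 0.23 with delta-conserved. RPL17, RPL36A, RPL39 and RPL39L, with lengths of 401 to 881 bases, stood at -0.11, -0.09, 0.01 and 0.07 with delta-conserved. Between 0.3 and 0.5 reads per base, ribosomal protein genes had 0.29 with delta-conserved (6 genes), against 0.05 for 1809 other genes. With SLNCR1 they had 0.21, against 0.07. Of these 6, RPL23, RPS24 and RPS20 had lengths of 2821, 2712 and 1826 bases. Below 0.01 reads per base the median of the other genes was -0.10 with delta-conserved and -0.17 with SLNCR1. Across the other genes, Spearman's rho between reads per base and the log2 difference was 0.43 with delta-conserved, 0.45 with SLNCR1 and 0.28 with the conserved region. Across the 78 genes it was 0.36, 0.21 and 0.23. These are descriptions across genes, which share their libraries and are not independent replicates. Read density thus moved with the differences, and its part in them was not tested.

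**Figure D5:**
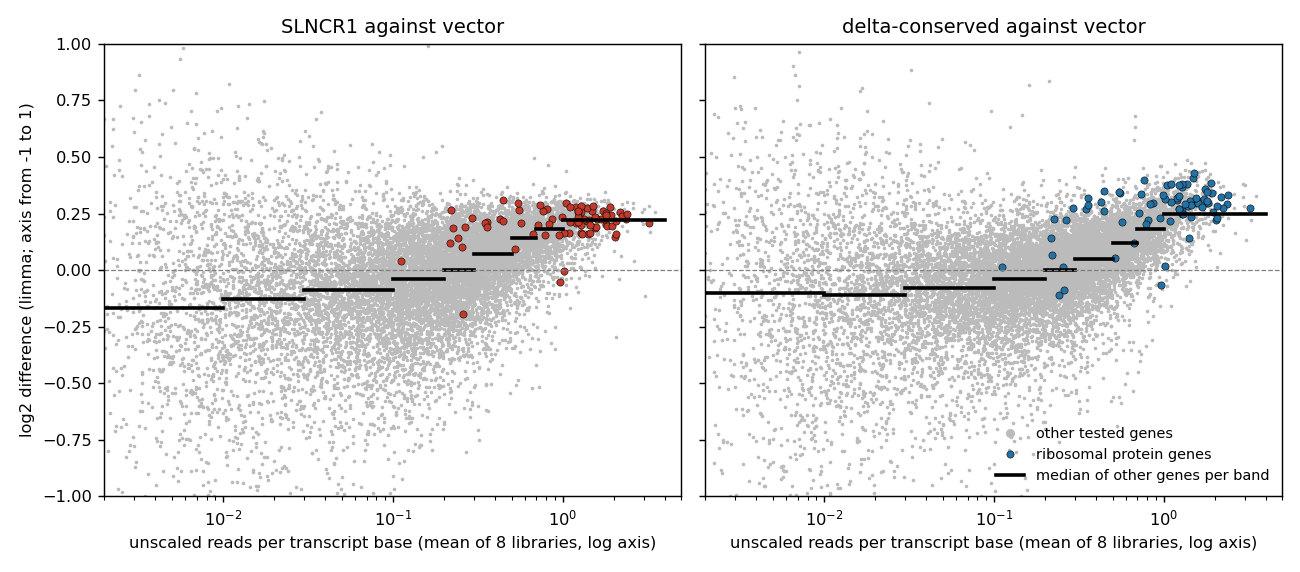
Limma log2 difference with SLNCR1 (left) and delta-conserved (right) against unscaled reads per transcript base on a log axis; grey points are other tested genes, coloured points the 78 ribosomal protein genes, and black bars the median of the other genes in each band of density. The bars rise from -0.17 to 0.22 on the left and from -0.10 to 0.25 on the right; genes beyond a log2 difference of 1 or -1 are outside the frame.

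Other genes of translation were called in the same direction, where 5.19% of all genes tested were called higher with delta-conserved and 3.94% with SLNCR1. Of ribosomal proteins that the naming pattern leaves out, FAU, which encodes RPS30 fused to a ubiquitin-like peptide, had a log2 difference of 0.36 with delta-conserved (limma adjusted p = 0.0144). GNB2L1, which encodes the small-subunit scaffold RACK1, had 0.31 (adjusted p = 0.0120). In all, 4 of these 7 genes were called higher with delta-conserved and 2 with SLNCR1. RPL22L1, the paralog of RPL22, stood at 0.28 with SLNCR1 (limma adjusted p = 0.0431), lost without each library but SLNCR1 a, and at 0.24 with delta-conserved (adjusted p = 0.0827), which passed without either SLNCR1 library.

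Of 5 tested elongation factors, 4 were called higher with delta-conserved and 2 with SLNCR1, with EEF2, the translocase, at 0.41 and 0.28. EEF1G had between 0 and 2 reads in each library and was not tested. Of 34 initiation factors, 13 were called higher with delta-conserved (5.19% of all genes tested) and 11 with SLNCR1 (3.94%). PABPC1, the cytoplasmic poly(A)-binding protein, had 0.41 and 0.28, and EIF4B, a cofactor of the helicase eIF4A, had 0.36 with delta-conserved. Of 16 tested TOP genes other than the 78, a list that shares members with the other lists, 15 were called higher with delta-conserved and 10 with SLNCR1. The exception with delta-conserved was EEF1D at 0.09. The medians of these lists with delta-conserved were 0.33 for elongation factors, 0.20 for initiation factors and 0.32 for TOP genes, against 0.00 over all genes tested. Over the 414 genes outside the 78 that lay above 1 read per base, the median was 0.25. The lists are not set beside other genes at like read density here. With the conserved region 0 genes of any of these lists were called. With depth in the fit, limma called 0 of all 16058 genes higher with delta-conserved and 1 with SLNCR1, and the adjusted p with delta-conserved was 0.997 for EEF2, 0.983 for PABPC1 and 0.946 for EIF4B. The calls of EEF2, PABPC1 and EIF4B with delta-conserved and of FAU and GNB2L1 were lost without delta-conserved b or vector a. With SLNCR1 the calls of PABPC1 and EEF2 were lost without SLNCR1 b or vector a, and that of EEF2 also without any 1 library of the conserved region or delta-conserved.

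Genes that make and regulate ribosomes are read here against the 5.19% of all genes tested called higher and 5.26% lower with delta-conserved, and the 3.94% higher and 7.41% lower with SLNCR1. Of 48 ribosome assembly factors, 6 were called higher with delta-conserved and 0 lower, with NPM1, an abundant nucleolar chaperone, at 0.37, and the list's median was 0.12. With SLNCR1 5 were higher, and EFTUD1, the GTPase that frees late 60S particles from eIF6, was lower at -0.23. Of 15 RNA polymerase I subunits and factors, 0 were called with delta-conserved, where 1 had an unadjusted p under 0.05, and 1, TAF1A, was lower with SLNCR1 at -0.27. Of 15 mTOR and TOP regulators, 2 were called higher with delta-conserved, EIF4EBP1, the translational repressor that mTOR phosphorylates, at 0.36, and CNBP at 0.30. With SLNCR1 EIF4EBP1 was higher at 0.30 and TSC1, an inhibitor of mTOR signalling, lower at -0.30. Of 8 genes that host small nucleolar RNAs, 3 were called higher with delta-conserved and 1 with SLNCR1. Calls with delta-conserved of NPM1 and EIF4EBP1 were lost without delta-conserved b or vector a, and the 4 named calls with SLNCR1 were lost without SLNCR1 b or vector a, those of EFTUD1 and TAF1A also without other single libraries. With depth in the fit, each call named in this paragraph was lost.

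Mitochondrial ribosomal protein genes, which serve the organelle's own ribosome, were taken by name as 75 entries, among them the pseudogene MRPL45P2. Their median was 0.13 with delta-conserved, 0.15 with SLNCR1 and 0.06 with the conserved region. Limma called 5 of them higher with delta-conserved, near the 5.19% of all genes tested, and 8 with SLNCR1, where that share was 3.94%. The 16 tested genes of the mitochondrial genome had medians of 0.44, 0.29 and 0.16 with the same 3 constructs, and 15 and 13 of them were called higher with delta-conserved and SLNCR1. Their share of assigned reads was 0.193% and 0.211% with SLNCR1, 0.174% and 0.189% in conserved-region libraries, 0.210% and 0.228% with delta-conserved, and 0.163% and 0.173% in vector. As for the cytosolic set, the share was higher in the shallower library of each group.

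Ribosomal protein pseudogenes, processed copies that can take or lose reads of their parents, took a small part of the reads. The tables list 844 such entries, of which 296 to 341 held reads in a library. They held between 2.75% and 3.48% of the reads on members and pseudogenes together. Of 47 tested pseudogenes, 1 was called higher and 1 lower with delta-conserved, where 5.19% of all genes tested were called higher and 5.26% lower. These were RPS2P5 at 0.49 (limma adjusted p = 0.0347) and RPL13AP20 at -0.59 (adjusted p = 0.0333). Their vector means were 93.5 and 95.1 normalized counts. The treatment of reads that fit both a gene and its copy was not given either.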

How the data were processed

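Per the labels, poly(A)-selected RNA of A375 cells was made into libraries with a NEBNext Ultra kit, which does not mark strand, and per the submitters' processing notes STAR, featureCounts, DESeq and hg19 were used. Versions and any removal of duplicate reads were not given in the sources used here. Per the file headers, the authors deposited for each comparison the mean signal per gene and group (normalized counts), a fold ratio, and a p-value with an adjusted p-value. The authors' values carry no SD. From here on, whole reads of single libraries were solved from the deposited means. The solution was single for 100% of genes with reads in 3 groups. In the conserved region group it was single for 99.981%, and 6 genes, none of them a member, had several. Member calls used limma 3.58.1 in R 4.3.3 with a mean-variance trend on log2(normalized count + 1), median-of-ratios scaling, genes with a mean of at least 10, and 1 fit over 4 groups (4 residual degrees of freedom). The fit drew each gene's spread towards the trend over all genes tested, with 13.61 prior degrees of freedom. On simulated data for delta-conserved against vector, with 16068 genes, the fit recovered 78.8% of 1.5-fold changes, and 15 of 192 calls were false. The number of libraries limits the precision. Depth was 8222868 to 12015394 reads per library.

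The members and gene lists were chosen with earlier results of these data known. Any member could be named; values in full were set for the 4 most abundant members, the stalk, RPL5, RPL11, RPS6, RPS19, RPL41, paralogs, and the 4 highest and 4 lowest log2 differences of each comparison, and up to 4 called genes each way were named from a list. A list of ribosomal proteins outside the naming pattern was used without entries that match the pattern. Promoter sequences came from RefSeq (GRCh38.p14) and transcript lengths from GENCODE release 29. Alternatives covered scaling, pseudocount, filters, the member minimum, single libraries left out and, chosen after seeing the data, a depth term. Where a group was left with 1 library, its spread was assumed to be like that of the other groups. A few genes are not reported here.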

Additional observations from a re-analysis of the deposited data

How the results depend on the processing

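No paired analysis was possible because the deposited columns carry no replicate number and the solved libraries cannot be tied to those of the labels. The medians over the 78 genes kept their sign under every scaling, pseudocount, filter and member minimum tried. Upper-quartile scaling moved that of delta-conserved to 0.37 and that of the conserved region against delta-conserved to -0.25, with the median of all genes at 0.08 for SLNCR1 and 0.07 for delta-conserved. With library total as a term the medians were -0.01 for SLNCR1, 0.02 for the conserved region, -0.05 for delta-conserved, 0.04 for SLNCR1 against delta-conserved, -0.02 for SLNCR1 against the conserved region and 0.06 for the conserved region against delta-conserved. Limma called 0 of the 78 genes in each. Over all genes it then called 1 higher and 46 lower for SLNCR1, 0 and 13 for delta-conserved, 9 and 298 for SLNCR1 against the conserved region, and 56 and 0 for the conserved region against delta-conserved. That term also turned single values with delta-conserved, to -0.01 for RPL5, -0.02 for RPL11, -0.03 for RPL3 and RPL10, -0.05 for RPL13, RPS27 and GNB2L1, -0.06 for RPLP0, RPL41 and RPL8, -0.07 for RPS12 and RPS20, -0.08 for RPS2, -0.09 for FAU and RPL22L1, -0.10 for RPS19, -0.12 for RPLP2, -0.13 for RPL39L, -0.21 for RPL22, -0.26 for RPL39, -0.27 for RPS27L, -0.48 for RPS10 and 0.07 for RPL36A, and RPL8 to 0.06 in the conserved region against delta-conserved. None of the single values turned by that term passed, with limma adjusted p-values from 0.926 to 0.997. With 1 library left out, RPL36A ran from -0.24 to 0.07 (above 0 without vector a) and RPS15A from -0.20 to 0.06 (above 0 without delta-conserved a).

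Calls among the 78 genes for SLNCR1 against vector numbered 13 with trimmed-mean and 66 with upper-quartile scaling, against 23. For SLNCR1 against the conserved region they numbered 0, 11 and, with a mean of at least 1, 0, against 1. For the conserved region against delta-conserved they numbered 3 and 38, against 7. Leaving out 1 library gave 0 to 65 calls for SLNCR1 against vector, 0 to 67 for delta-conserved against vector, 0 to 23 for SLNCR1 against the conserved region and 0 to 36 for the conserved region against delta-conserved. Medians then ran from 0.14 to 0.29 for SLNCR1, 0.05 to 0.16 for the conserved region, 0.23 to 0.34 for delta-conserved, -0.14 to 0.00 for SLNCR1 against delta-conserved, 0.05 to 0.18 for SLNCR1 against the conserved region, and -0.24 to -0.13 for the conserved region against delta-conserved. Over single named genes, 777 of the values under an alternative were counted as unchanged, 209 as a lost call, 12 as a gained call and 26 as turned. Some values near 0 that crossed it were counted as unchanged. With 1 library left out and delta-conserved against vector, RPL39 ran from -0.10 to 0.13 and RPS10 from -0.08 to 0.11. RPL39L ran from -0.03 to 0.17, RPS27L from -0.03 to 0.07 and RPL22 from -0.01 to 0.11. The cause was not tested. With 2 libraries a group and members near 1000 reads, a difference above its standard error is not thereby resolved. With delta-conserved, RPS19 at 0.20 ± 0.074 and RPL41 at 0.23 ± 0.088 (SE) did not pass (limma adjusted p = 0.0943 and 0.105).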
